A study of Mus musculus with 16 samples.

Results

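Tau and 8 further genes that build, bind, or modify the neuronal microtubule were described across the cell classes and the 4 groups of a single-nucleus RNA sequencing study of the mouse medial prefrontal cortex (PFC). The 9 members, of 19999 genes in the table, were taken from the table by name. They were the microtubule-associated protein genes Mapt, Map2, Map1b, and Map4, the tau kinase genes Gsk3b, Cdk5, and Mark1, the Cdk5 activator gene Cdk5r1, and the stathmin gene Stmn2. Counts of unique molecular identifiers (UMIs) were summed per mouse over all nuclei and over the nuclei of each class, and levels are given as CPM, the UMIs of a gene in 1000000 UMIs of that sum after edgeR's TMM scaling of the mice within the class. The levels of Gm42418, Slc17a7, Malat1, Gad1, and Mbp given below are CPM without this scaling. All 9 members were listed in the table, and their levels were not compared with one another because longer transcripts and nuclear intron reads can give more UMIs.

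The study asked how repeated alcohol intoxication acts on gene expression in mice prone to Alzheimer's disease (AD). It held 16 male mice, each labelled 22 weeks old, with 4 mice in each of 4 groups. WT mice had the B6;129 background. 3xTg-AD mice, whose background carries the same name, had among their alleles human APP with the Swedish mutation and human tau with the P301L mutation. Whether 3xTg-AD and WT mice also differed elsewhere in the genome was not tested. Alcohol groups received ethanol injections and cycles of ethanol vapor with pyrazole, which slows alcohol breakdown, and control groups received pyrazole and air. All mice had been tested in the Morris water maze. Both transgenes are driven by the Thy1 promoter, which is active mainly in neurons, and they overexpress mutant proteins rather than changing the mouse Mapt gene. The human transgenes were not among the rows of the table, so every Mapt value is a count of reads assigned to the mouse gene. Whether reads of the similar human tau transcript were assigned to Mapt was not tested.

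Tau, the product of Mapt, binds along axonal microtubules, and in AD it is heavily phosphorylated, leaves the microtubule, and aggregates. GSK-3 beta (Gsk3b), CDK5 with its activator p35 (Cdk5r1), and MARK1 are among the kinases that phosphorylate tau, and MARK kinases act on the repeats by which tau, MAP2, and MAP4 hold the microtubule. MAP2 marks dendrites, MAP1B is abundant in growing axons, MAP4 is found in most cell types, and stathmin-2 (Stmn2) binds free tubulin and is needed for axon upkeep.

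The table held 114512 nuclei and 216742276 UMIs. Nuclei per mouse ran from 4955 to 9096 and UMIs per mouse from 9622031 to 17544364, and the median nucleus had 1543 UMIs. Nuclei were placed in classes by marker genes that include no member, and 39236 nuclei (34.3%) fitted no class. Each class name stands for nuclei like that type. In the glutamatergic class, 4 of 12 markers reached 1.5 times their level in all other nuclei, against 12 of 12 in the GABAergic class and 13 of 13 in oligodendrocytes. A class of 10618 barcodes (low-marker barcodes) was set by its likeness to barcodes with few distinct markers of any type. For 8826 of them this class led the next by less than 1000-fold. It had a median of 1095 UMIs, 2.31% mitochondrial UMIs, and a Malat1 level of 57846 CPM, against 239992 CPM of this nuclear RNA in glutamatergic neurons. The glutamatergic marker Slc17a7, the GABAergic marker Gad1, and the oligodendrocyte marker Mbp had 671, 178, and 374 CPM in it. In all nuclei they had 633, 78.0, and 158 CPM, so its markers were mixed rather than absent. There were 3 control mice that stood apart. WT control mice 26 and 27 and 3xTg-AD control mouse 12 had 17914 to 29047 CPM of the ribosomal RNA-like transcript Gm42418, against 2059 to 4249 CPM in the other 13 mice, and no alcohol-exposed mouse was among them. Of 321 nuclei with markers of Meis2 neurons, 227 came from mouse 27, and these nuclei were kept out of the GABAergic class. Barcodes seen in 2 or more libraries numbered 1694 of 112806.

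The sum over all nuclei held between 17711 UMIs (Cdk5) and 178660 UMIs (Map1b) of a member. In 19 classes with enough nuclei for a test there were 171 pairs of member and class, of which 159 passed the filter on low counts. The pairs below it were Cdk5 in 5 classes, Cdk5r1 in 1, and Mark1 in 6. In fits of all 16 mice without a covariate, Mark1 was the one member of 9 that passed the test in any comparison of groups, and it was lower in alcohol-exposed mice. That difference shrank when the 3 mice with high Gm42418 were left out. The other 8 members did not pass in these fits in any class or in the sum of all nuclei, although Cdk5 did with Gm42418 as a covariate, and between cell classes Mapt showed the widest step, with most Mapt in oligodendrocytes.

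**Figure D1:**
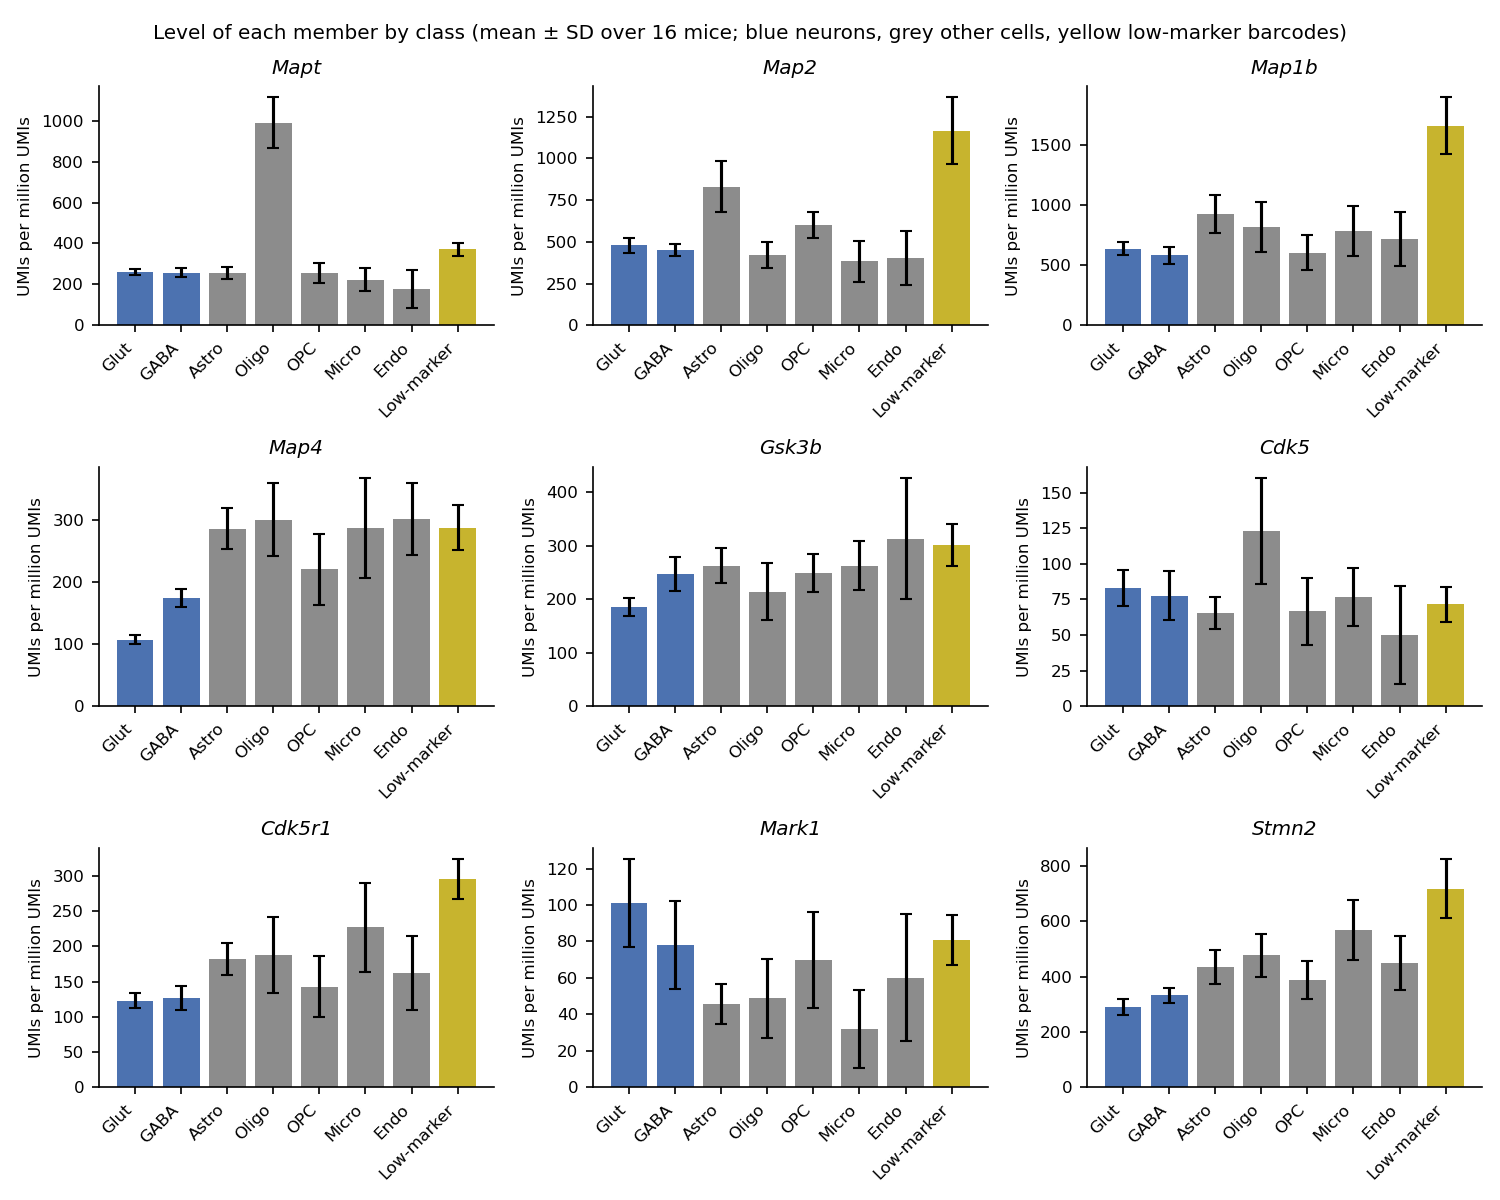
Level of each member in 8 broad classes, in CPM. Bars are means over 16 mice and lines are SDs. Mapt reached 990 CPM in oligodendrocytes, Mark1 was highest in glutamatergic neurons at 101 CPM, and Map2, Map1b, Cdk5r1, and Stmn2 were highest in low-marker barcodes.

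Levels in cells that are not neurons have to be read with possible free RNA in mind, which was not measured. Slc17a7, the vesicular glutamate transporter gene, should be absent from glia, yet it was counted at 396 CPM in astrocytes, 426 CPM in oligodendrocytes, 362 CPM in oligodendrocyte precursors (OPC), 459 CPM in microglia, and 372 CPM in endothelial cells, against 735 CPM in glutamatergic neurons and 671 CPM in low-marker barcodes. Median depth was 2655 UMIs per nucleus in glutamatergic neurons, 1202 in astrocytes, 880 in oligodendrocytes, and 773 in microglia. UMIs that enter nuclei from 1 shared source would keep their genes in 1 ratio in every class if the classes were set without those genes. Each member was therefore also given as UMIs per Slc17a7 UMI in astrocytes, oligodendrocytes, OPC, microglia, endothelial cells, and low-marker barcodes. However, Slc17a7 was itself 1 of the 12 glutamatergic markers by which nuclei were placed. Nuclei outside that class were thus chosen in part for low Slc17a7, and the ratio can differ between classes for that reason alone. The ratios are descriptions and do not settle where the UMIs came from. Neighboring classes in the order of mean levels were compared within mice by exact sign-flip permutation tests (two-sided, adjusted by Benjamini-Hochberg over 144 pairs, of which 20 differed). The smallest p that 16 mice allow is 3.05e-05, or 0.000488 after adjustment. A CPM is a share of all UMIs of a class, and TMM scaled the mice within a class only. A gene with many UMIs thus lowers the CPM of all others. Malat1 had 239992 CPM in glutamatergic neurons, 163354 CPM in GABAergic neurons, and 57846 CPM in low-marker barcodes. Its part in the steps between classes was not tested.

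Mapt (chr11:104231390-104332090, plus strand, GRCm38) is a gene of 16 exon blocks in which introns take 92.5% of the span. Its level was 990 ± 124 CPM (SD, n = 16) in oligodendrocytes, the myelin-forming cells. Low-marker barcodes followed with 371 ± 33.8 CPM, and then glutamatergic neurons with 261 ± 16.1, OPC with 258 ± 48.9, GABAergic neurons with 257 ± 21.1, astrocytes with 254 ± 29.4, microglia with 224 ± 57.0, and endothelial cells with 179 ± 92.6. The level in oligodendrocytes exceeded that in low-marker barcodes by 1.42 on the log2 scale, in 16 of 16 mice (exact permutation test, adjusted p = 0.000488). Low-marker barcodes exceeded glutamatergic neurons by 0.51, also in 16 of 16 mice (exact permutation test, adjusted p = 0.000488), while the remaining neighbors did not differ beyond their spread. No mouse of any group fell below 838 CPM in oligodendrocytes, and no mouse exceeded 452 CPM in endothelial cells, whose spread was the widest relative to the mean among these 8 classes.

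Per UMI of Slc17a7, oligodendrocytes held 2.28 UMIs of Mapt. The other 5 classes held between 0.469 and 0.710. The excess of Mapt in oligodendrocytes thus stood out on both scales, and in single mice the ratio ranged from 1.73 to 4.50 there, whereas Mapt in astrocytes, OPC, microglia, and endothelial cells was near its ratio in low-marker barcodes of 0.557. Among glutamatergic subclasses, Mapt ran from 268 CPM in L2/3 IT to 221 CPM in L5 ET, and no neighbors in this order differed.

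Map2 (chr1:66175273-66442583, plus strand), whose protein bundles microtubules in dendrites, was highest in low-marker barcodes at 1165 ± 200 CPM. Astrocytes followed with 829 ± 153, OPC with 600 ± 78.7, glutamatergic neurons with 480 ± 44.4, and GABAergic neurons with 451 ± 34.2 CPM. Each of these 4 steps differed (exact permutation test, largest adjusted p = 0.00366), and oligodendrocytes (421 CPM), endothelial cells (403 CPM), and microglia (384 CPM) did not differ from their neighbors. Map2 UMIs per Slc17a7 UMI were 2.07 in astrocytes, 1.75 in low-marker barcodes, and 1.65 in OPC, but 0.957 in oligodendrocytes and 0.794 in microglia. Map2 thus did not keep 1 ratio to Slc17a7 across these classes.

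Map1b (chr13:99421446-99516540, minus strand) encodes a light and heavy chain pair that stabilizes axonal microtubules. Its level was 1662 ± 235 CPM in low-marker barcodes and 925 ± 158 CPM in astrocytes, a step of 0.85 on the log2 scale seen in 16 of 16 mice (exact permutation test, adjusted p = 0.000488). The remaining broad classes ran from 819 CPM in oligodendrocytes to 583 CPM in GABAergic neurons without a step between neighbors that passed the test. Map1b UMIs per Slc17a7 UMI were 2.47 in low-marker barcodes, 2.30 in astrocytes, and between 1.63 and 2.03 in the other 4 classes. Among GABAergic subclasses, Sncg neurons exceeded Lamp5 neurons, the lowest subclass, by 0.35 in 16 of 16 mice (568 against 451 CPM, exact permutation test, adjusted p = 0.000488).

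Map4 (chr9:109931460-110083955, plus strand), the microtubule-associated protein gene of most dividing and nondividing cells, was lowest in glutamatergic neurons at 107 ± 7.64 CPM, and GABAergic neurons, at 174 ± 14.2 CPM, exceeded them by 0.70 on the log2 scale in 16 of 16 mice (exact permutation test, adjusted p = 0.000488). OPC had 220 CPM, astrocytes 285, microglia 286, low-marker barcodes 287, oligodendrocytes 300, and endothelial cells 301 CPM. The steps from GABAergic neurons to OPC and from OPC to astrocytes also passed (exact permutation test, adjusted p = 0.0305 and 0.00816), and the 5 highest classes did not differ from their neighbors. Map4 UMIs per Slc17a7 UMI lay between 0.611 and 0.800 in the 5 classes that are neither neurons nor low-marker barcodes, above the 0.434 of low-marker barcodes. On the same strand, 3 genes overlap Map4, and reads can be shared with them. Same-strand genes also overlap Map2 (Gm24729 and Gm25411), Map1b (5330431K02Rik), Gsk3b (Gm25617), and Mark3 (Gm48286), a gene described below.

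Gsk3b (chr16:38089001-38246084, plus strand), a constitutively active kinase and the best known tau kinase, had its highest mean level in endothelial cells. They had 313 ± 113 CPM, low-marker barcodes 302, microglia and astrocytes 263 each, OPC 249, GABAergic neurons 247, oligodendrocytes 214, and glutamatergic neurons 185 ± 17.1 CPM. No step between neighbors passed the test in this order. Gsk3b UMIs per Slc17a7 UMI ran from 0.458 in low-marker barcodes and 0.498 in oligodendrocytes to 0.688 in OPC and 0.806 in endothelial cells. Within the glutamatergic class, L5/6 NP neurons (259 CPM) and L6 CT neurons (235 CPM) lay above the other subclasses, and L6 CT exceeded L5 ET, at 185 CPM, by 0.35 in 16 of 16 mice (exact permutation test, adjusted p = 0.000488).

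Cdk5 (chr5:24418241-24423530, minus strand), a kinase active in postmitotic neurons, had 123 ± 36.9 CPM in oligodendrocytes and 83.0 ± 12.8 CPM in glutamatergic neurons, and the step passed with 14 of 16 mice (0.57 on the log2 scale, exact permutation test, adjusted p = 0.00816). From glutamatergic neurons down to endothelial cells, which had the lowest mean, no neighbors differed. Cdk5 UMIs per Slc17a7 UMI were 0.305 in oligodendrocytes and between 0.109 and 0.187 in the other 5 classes, and in single mice the oligodendrocyte ratio overlapped those of the other classes. Cdk5r1 (chr11:80477023-80481184, plus strand), a gene of a single exon block whose product p35 switches CDK5 on, followed a different order, with 295 ± 28.3 CPM in low-marker barcodes, 227 CPM in microglia, and 123 CPM in glutamatergic neurons. Only the first of its 7 steps passed (0.41 on the log2 scale, 13 of 16 mice, exact permutation test, adjusted p = 0.00824). Its UMIs per Slc17a7 UMI stayed between 0.392 and 0.503 in all 6 classes when mice were summed. In single mice they ran from 0.240 to 1.11 in oligodendrocytes and from 0.214 to 0.678 in microglia. The level of Cdk5r1 in glia is not read as expression by those cells, and the source of these UMIs was not tested.

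Stmn2 (chr3:8509360-8561606, plus strand) ran from 718 ± 106 CPM in low-marker barcodes and 568 CPM in microglia to 332 ± 25.8 CPM in GABAergic and 290 ± 28.1 CPM in glutamatergic neurons. Microglia, which are not known to make this neuronal protein, thus held more Stmn2 in CPM than neurons. However, Stmn2 UMIs per Slc17a7 UMI were 1.11 in astrocytes, 1.13 in oligodendrocytes, 1.08 in OPC, 1.21 in microglia, 1.24 in endothelial cells, and 1.11 in low-marker barcodes. The highest of these ratios over the lowest was the smallest fold among the 9 members. The glial level of Stmn2 is not read as expression, and the source of these UMIs was not tested. The ratio within glutamatergic neurons was 0.397.

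**Figure D2:**
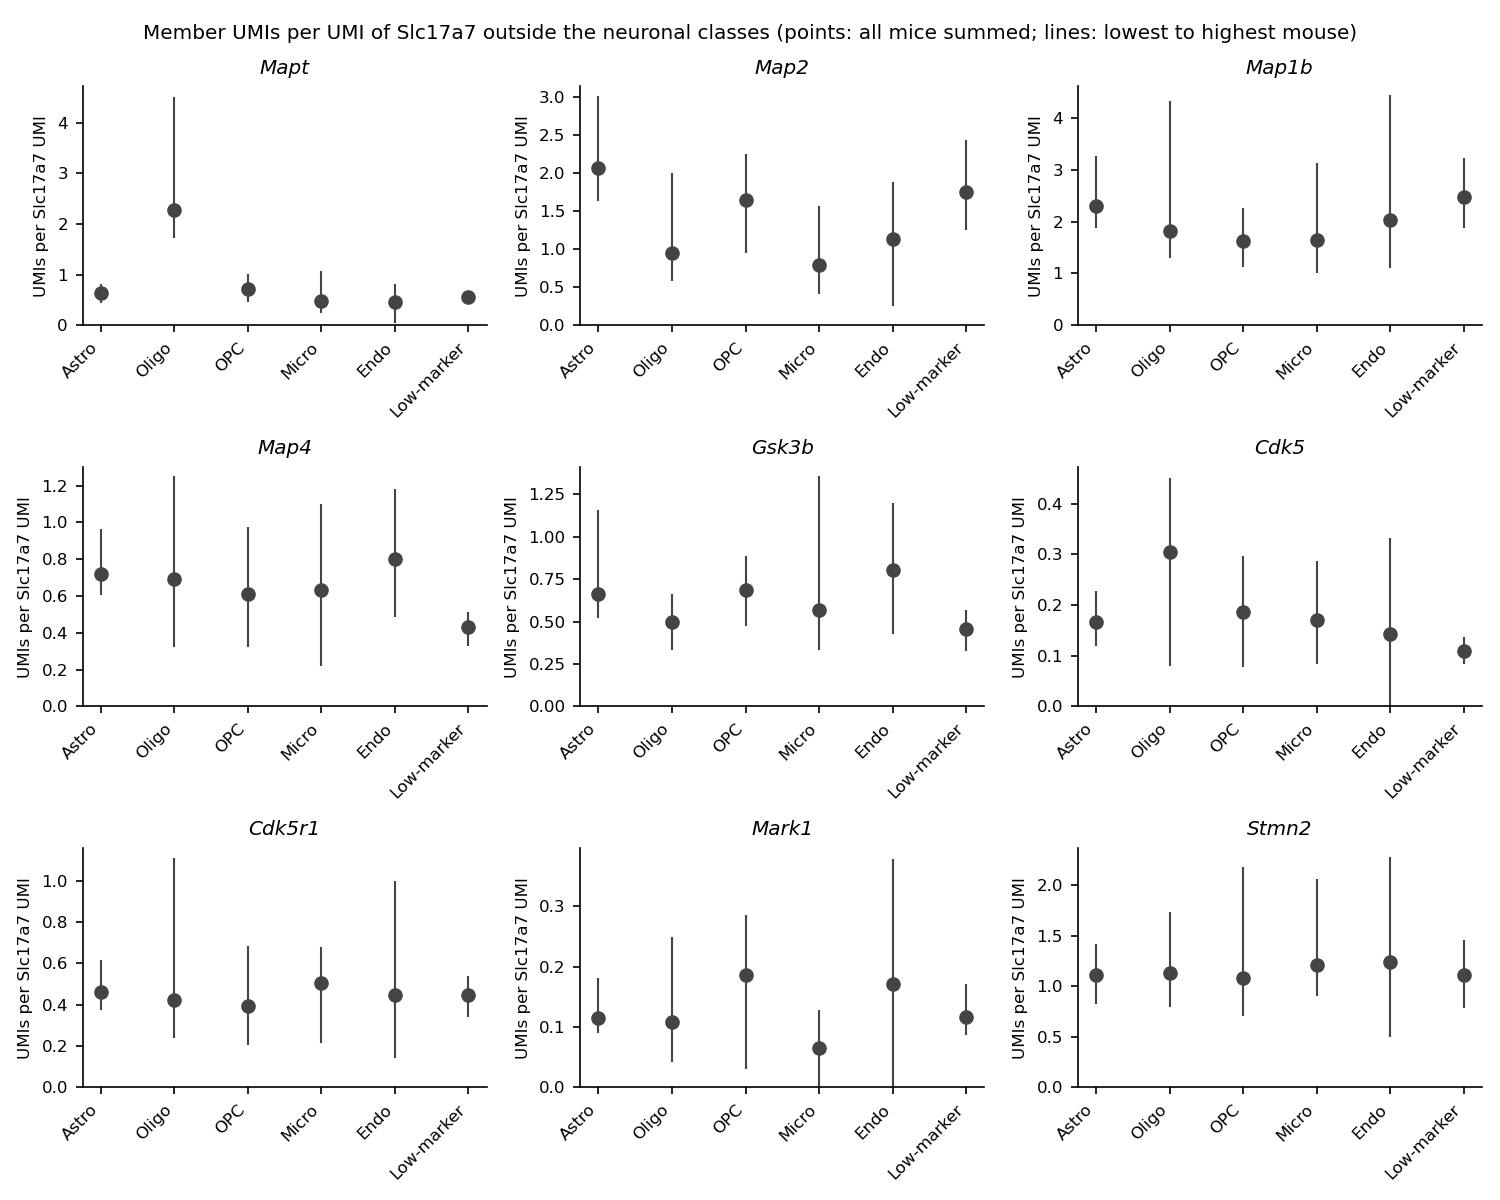
UMIs of each member per UMI of Slc17a7 in 6 classes outside the neuronal ones. Points are sums over 16 mice and lines run from the lowest to the highest mouse. Stmn2 and Cdk5r1 stayed near 1 ratio (1.08 to 1.24 and 0.392 to 0.503), whereas Mapt stood at 2.28 in oligodendrocytes and at most 0.710 elsewhere.

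Mark1 (chr1:184896789-184999570, minus strand) encodes a kinase that phosphorylates microtubule-associated proteins and releases them from the microtubule. In contrast to the other 8 members, it had its highest mean level in glutamatergic neurons, at 101 ± 24.0 CPM. They exceeded low-marker barcodes, at 80.7 ± 13.6 CPM, by 0.29 on the log2 scale in 13 of 16 mice (exact permutation test, adjusted p = 0.00824). GABAergic neurons had 78.1 ± 23.9 CPM, OPC 69.6, endothelial cells 60.0, oligodendrocytes 48.8, astrocytes 45.7 ± 11.1, and microglia 32.0 ± 21.3 CPM, with no further step between neighbors that passed. Microglia, with 64 Mark1 UMIs in all, and astrocytes, with 578, were thus thinly covered. Per UMI of Slc17a7, Mark1 had 0.115 UMIs in astrocytes, 0.108 in oligodendrocytes, and 0.117 in low-marker barcodes, against 0.134 in glutamatergic neurons. Its counts in astrocytes and oligodendrocytes are not read as expression, and their source was not tested. The ratio was 0.186 in OPC, 0.171 in endothelial cells, and 0.066 in microglia, each from 154 UMIs or fewer. Among glutamatergic subclasses, mean levels ran from 133 CPM in L5/6 NP and 119 CPM in L5 IT to 87.7 CPM in L5 ET, and no neighbors differed.

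RefSeq (GRCm38.p6) lists 2 start sites for Mark1, and their promoter windows are shown because Mark1 and its relative Mark3, described below, were both lower with alcohol. Of the 9 members, 5 (Map2, Map1b, Map4, Gsk3b, and Mark1) matched an entry by symbol, and Mapt, Cdk5, Cdk5r1, and Stmn2 did not. Each window runs 5′ to 3′ on the strand of the gene from 250 bases before to 50 bases after the start, and capitals mark GC boxes (GGGCGG on either strand), the site of Sp-family factors.

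Mark1 start at the gene body (chr1:184999500-184999799, minus strand): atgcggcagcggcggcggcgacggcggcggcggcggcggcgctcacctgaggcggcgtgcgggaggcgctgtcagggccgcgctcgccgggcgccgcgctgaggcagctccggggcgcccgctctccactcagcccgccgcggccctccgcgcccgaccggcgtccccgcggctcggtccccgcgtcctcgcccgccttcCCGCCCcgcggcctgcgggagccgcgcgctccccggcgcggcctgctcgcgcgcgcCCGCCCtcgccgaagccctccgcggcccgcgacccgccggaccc

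Mark1 upstream start (chr1:184999905-185000204, minus strand): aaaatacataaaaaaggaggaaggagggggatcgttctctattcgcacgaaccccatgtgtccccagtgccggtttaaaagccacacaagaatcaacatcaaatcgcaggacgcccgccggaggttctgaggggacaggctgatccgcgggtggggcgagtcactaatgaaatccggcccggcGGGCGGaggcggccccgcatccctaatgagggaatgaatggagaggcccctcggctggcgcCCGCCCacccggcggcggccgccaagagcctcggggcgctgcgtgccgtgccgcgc

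Mark3 (chr12:111574260-111574559, plus strand): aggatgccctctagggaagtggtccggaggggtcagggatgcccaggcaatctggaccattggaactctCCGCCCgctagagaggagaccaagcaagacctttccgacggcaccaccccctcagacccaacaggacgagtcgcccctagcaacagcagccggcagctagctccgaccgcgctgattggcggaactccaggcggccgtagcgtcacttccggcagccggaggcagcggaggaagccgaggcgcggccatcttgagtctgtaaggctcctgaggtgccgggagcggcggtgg

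RefSeq lists a second Mark3 window that overlaps the printed one (chr12:111574271-111574570) and is not printed. The Mark1 windows held 2 GC boxes each and each Mark3 window 1. A GC box occurred in 35.7% of all 32851 promoter windows of the same length, so its presence does not set these genes apart. None of the printed windows held the letters TATAAA, which occurred in 13.6% of windows on either strand. The first Mark1 window had 85.7% G and C and 64 CpG dinucleotides, the second 64.0% and 30, and the printed Mark3 window 66.0% and 24, against a median of 7 CpG dinucleotides over all windows.

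For the effect of alcohol, the mean of both alcohol groups was compared with the mean of both control groups, with 8 mice on each side. In the sum of all nuclei, Mark1 was 130, 120, 93.5, and 85.1 CPM in WT control mice 26, 27, 28, and 36. It was 75.6, 71.9, 77.3, and 75.3 CPM in WT mice 6, 7, 17, and 18 exposed to alcohol. Mark1 was 124, 97.0, 86.0, and 83.1 CPM in 3xTg-AD control mice 12, 13, 14, and 21, and 83.3, 73.8, 66.5, and 77.4 CPM in 3xTg-AD mice 4, 31, 33, and 34 exposed to alcohol. The WT groups did not overlap, and the 3xTg-AD groups overlapped by 1 alcohol-exposed mouse, number 4, which exceeded control mouse 21. The 3 highest mice were the 3 with high Gm42418. Group means were 107 ± 21.3 (SD, n = 4), 75.0 ± 2.27, 97.6 ± 18.7, and 75.3 ± 7.02 CPM in this order, so the spread was wider in both control groups.

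Mark1 was lower with alcohol by edgeR's quasi-likelihood test across all genes (log2 fold change -0.44, SE 0.10, Benjamini-Hochberg adjusted p = 0.0234), the only member of 9 called. In this comparison, 3.30% of 16767 genes tested were called. A sum over all nuclei cannot tell fewer cells of a type from less RNA per cell. Within classes, 3 of 159 tests of members were called, against 0.817% of all gene and class tests, and all 3 were Mark1. These were glutamatergic neurons (-0.45, SE 0.11, adjusted p = 0.0311 by the same test), GABAergic neurons (-0.54, SE 0.13, adjusted p = 0.0255), and L5 IT neurons (-0.52, SE 0.12, adjusted p = 0.0348). L5 IT nuclei are part of the glutamatergic class, so these calls are not independent, and the 3 calls rest on 1 gene. Mark1 was below the controls in 13 of 13 classes in which it passed the filter, with a median of -0.45 and a range from -0.61 in Pvalb neurons to -0.16 in astrocytes, and 11 of them had an unadjusted p under 0.05.

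**Figure D3:**
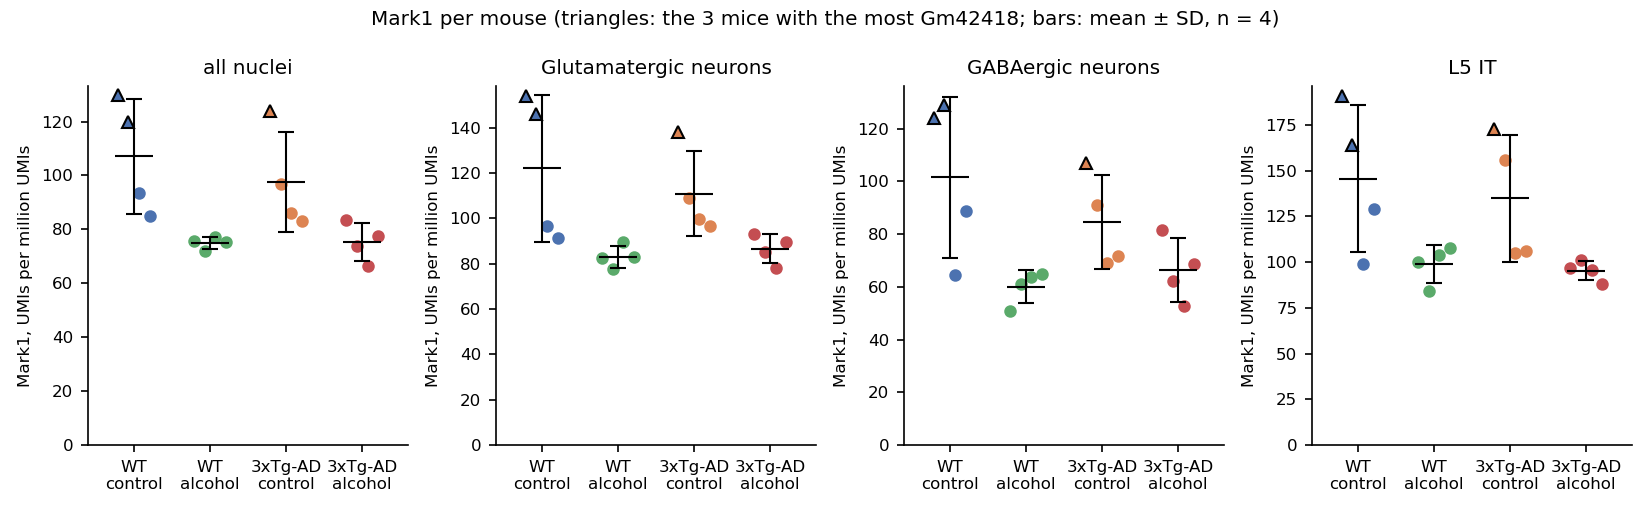
Mark1 in each mouse, in CPM, in the sum of all nuclei, glutamatergic neurons, GABAergic neurons, and L5 IT neurons. Points are mice, bars are the mean and SD of 4 mice, and triangles are the 3 control mice with the most Gm42418, which had the highest Mark1 in the sum of all nuclei (120 to 130 CPM).

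In glutamatergic neurons, Mark1 was 154, 146, 96.8, and 91.4 CPM in WT controls and 82.4, 77.7, 89.5, and 82.8 CPM in alcohol-exposed WT mice. In 3xTg-AD mice it was 138, 109, 99.7, and 96.7 CPM without and 93.3, 85.3, 78.3, and 89.5 CPM with alcohol. Neither genotype overlapped between treatments in this class. In GABAergic neurons, WT mice had 124, 129, 64.4, and 88.6 CPM without and 50.8, 60.9, 63.9, and 64.7 CPM with alcohol, where mouse 18 just exceeded mouse 28. 3xTg-AD mice had 107, 91.1, 68.9, and 71.6 CPM without and 81.6, 62.2, 52.8, and 68.5 CPM with alcohol, so these 2 groups overlapped. In L5 IT neurons, controls ranged from 98.9 to 191 CPM and alcohol-exposed mice from 84.1 to 108 CPM.

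How much of this rested on the 3 control mice with high Gm42418 was measured by leaving them out. Without them, Mark1 was -0.24 (SE 0.07, adjusted p = 0.0440 by edgeR) in the sum of all nuclei. The fold change was -0.20 in glutamatergic neurons (adjusted p = 0.0779), -0.30 in GABAergic neurons (adjusted p = 0.251), and -0.26 in L5 IT neurons (adjusted p = 0.363), so none of the 3 class calls was kept. Mark1 was still below controls in 13 of 14 classes then tested. With the log2 share of Gm42418 as a covariate and all 16 mice, it was -0.17 (adjusted p = 0.244) in the sum of all nuclei. In that fit, Mark1 was -0.12 in glutamatergic neurons (adjusted p = 0.417 by edgeR), -0.23 in GABAergic neurons (adjusted p = 0.476), and -0.17 in L5 IT neurons (adjusted p = 0.635). It was below controls in 12 of 13 classes there, and 0.00 in L2/3 IT neurons. The share of Malat1, a covariate added after the data were seen, left Mark1 in the sum of all nuclei at -0.44 (adjusted p = 0.00344). Leaving out 1 mouse at a time moved the value in the sum of all nuclei between -0.49 and -0.37, and the call was lost without mouse 13, 18, or 33 (largest adjusted p = 0.0619). The class calls were lost in 8 of these 16 fits in glutamatergic neurons (-0.51 to -0.38), in 5 in GABAergic neurons (-0.62 to -0.47), and in 10 in L5 IT neurons (-0.59 to -0.45).

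The other 8 members did not pass for alcohol. Mapt in the sum of all nuclei was 302, 284, 269, and 282 CPM in WT controls and 280, 263, 290, and 293 CPM in alcohol-exposed WT mice. It was 295, 268, 311, and 301 CPM in 3xTg-AD controls and 304, 262, 300, and 311 CPM in alcohol-exposed 3xTg-AD mice. All 4 groups overlapped, and the log2 fold change with alcohol was -0.01 (SE 0.06, adjusted p = 0.968 by edgeR). Map2 (-0.05), Map1b (-0.08), Map4 (0.01), Gsk3b (0.02), Cdk5 (-0.01), and Cdk5r1 (-0.03) also did not pass, and the smallest adjusted p of these was 0.570 for Map1b. For Cdk5 alone, the Gm42418 covariate changed the outcome, with -0.27 (SE 0.08, adjusted p = 0.0420) in the sum of all nuclei and -0.26 (adjusted p = 0.0419) in glutamatergic neurons. In that fit, 1184 of 16767 genes were called in the sum of all nuclei and 1388 of 15016 in glutamatergic neurons. Cdk5 was not called when the 3 mice with high Gm42418 were left out.

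In the sum of all nuclei, Map2 ranged from 579 to 760 CPM in WT controls, 592 to 613 in alcohol-exposed WT mice, 551 to 601 in 3xTg-AD controls, and 532 to 614 in alcohol-exposed 3xTg-AD mice. Map4 ranged from 146 to 167, 161 to 185, 135 to 180, and 143 to 176 CPM in the same order. The 4 groups overlapped for Map4, and for Map2 each alcohol group overlapped its control. For the kinases, Gsk3b ranged from 190 to 257, 212 to 238, 199 to 248, and 211 to 222 CPM, so the wide groups were the controls. Cdk5 ranged from 57.3 to 97.1, 71.1 to 88.7, 67.5 to 96.7, and 77.6 to 88.7 CPM, and the 3 lowest values, at 57.3, 63.9, and 67.5 CPM, were those of the 3 mice with high Gm42418. Cdk5r1 ranged from 147 to 186, 164 to 186, 134 to 182, and 129 to 166 CPM, with overlap of all groups.

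Map1b, Stmn2, and Map2 had the same sign in nearly every class without a call. Map1b was below the controls in 19 of 19 classes after alcohol (median -0.14, lowest -0.34 in oligodendrocytes), with 4 unadjusted p under 0.05 and a smallest adjusted p of 0.326. In the sum of all nuclei, the Map1b value turned to 0.01 with the Gm42418 covariate. Map2 was below the controls in 17 of 19 classes (median -0.07), with 0 unadjusted p under 0.05. Stmn2 was above the controls in 18 of 19 classes (median 0.10), with 1 unadjusted p under 0.05 and a smallest adjusted p of 0.388. Stmn2 in the sum of all nuclei was 360, 340, 372, and 392 CPM in WT controls and 426, 411, 470, and 485 CPM in alcohol-exposed WT mice, and these groups did not overlap. In 3xTg-AD mice it was 345, 387, 412, and 402 CPM without and 476, 313, 469, and 323 CPM with alcohol, where the exposed mice split on both sides of the controls. Over both genotypes, the Stmn2 difference was 0.16 (SE 0.09, adjusted p = 0.338 by edgeR). Classes share libraries, some share nuclei, and they may share free RNA, so their signs are not independent.

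For the effect of genotype, both 3xTg-AD groups were compared with both WT groups. Here and for the lists below, the transgenes and any other difference between 3xTg-AD and WT mice cannot be told apart. No member was called by edgeR's quasi-likelihood test in the sum of all nuclei (0 of 9, 1 at an unadjusted p under 0.05), where 3.28% of genes were called. None was called in classes either (0 of 159, 10 at an unadjusted p under 0.05), where 1.12% of gene and class tests were called, and DESeq2 made 0 calls in classes as well. Among all genes, 2720 of 16767 in the sum of all nuclei and 2312 of 15016 in glutamatergic neurons had an unadjusted p under 0.05. Mapt was 0.05 (SE 0.06, adjusted p = 0.747 by edgeR), with 17 of 19 classes above WT but a median of 0.06, a range from -0.11 to 0.18, and no unadjusted p under 0.05. The member nearest to a call in the sum of all nuclei was Map1b, at 1050, 774, 836, and 838 CPM in WT controls and 934, 856, 855, and 837 CPM in alcohol-exposed WT mice. It was 892, 783, 804, and 813 CPM in 3xTg-AD controls and 772, 661, 795, and 718 CPM in alcohol-exposed 3xTg-AD mice. These alcohol-exposed groups did not overlap, but the controls did, and the Map1b difference by genotype was -0.16 (SE 0.08, adjusted p = 0.303).

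In classes, the smallest adjusted p by genotype belonged to endothelial cells. Map1b there was 908 ± 211 CPM (SD, n = 4) in WT controls, 751 ± 293 in alcohol-exposed WT mice, 608 ± 194 in 3xTg-AD controls, and 603 ± 41.1 in alcohol-exposed 3xTg-AD mice. The log2 fold change by genotype was -0.52 (SE 0.17, adjusted p = 0.104 by edgeR), and that of Map2 in the same class was -0.55 (SE 0.20, adjusted p = 0.146). Groups overlapped for Map2, whose mice ranged from 245 to 736 CPM in WT and from 141 to 496 CPM in 3xTg-AD mice. The class held 522 nuclei over 16 mice. Adjustment ran over 1320 genes in endothelial cells and over 15016 in glutamatergic neurons, so adjusted p values of different classes are not on 1 scale. Neither gene was called, neither value is read as a change in those cells, and whether it is one was not tested.

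Mapt was also examined in oligodendrocytes, where its level was highest, and in L5 ET neurons, where Thy1 was called by genotype. In oligodendrocytes, Mapt was 838, 1230, 975, and 945 CPM in WT controls and 942, 995, 894, and 918 CPM in alcohol-exposed WT mice. It was 1313, 1004, 995, and 910 CPM in 3xTg-AD controls and 1050, 955, 868, and 1008 CPM in alcohol-exposed 3xTg-AD mice. The groups overlapped and the log2 fold change by genotype was 0.09 (SE 0.12, adjusted p = 0.956 by edgeR). In L5 ET neurons, Mapt was 222 ± 14.1, 213 ± 23.4, 223 ± 25.0, and 226 ± 17.4 CPM (SD, n = 4) in the 4 groups in the same order, a difference of 0.05 by genotype (adjusted p = 0.958).

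Thy1, given because its promoter drives the human tau transgene, did differ in those neurons. Thy1 in L5 ET neurons was 170, 149, 162, and 182 CPM in WT controls, 215, 187, 216, and 201 CPM in alcohol-exposed WT mice, 196, 273, 308, and 328 CPM in 3xTg-AD controls, and 277, 215, 436, and 348 CPM in alcohol-exposed 3xTg-AD mice. It was higher in 3xTg-AD mice by 0.67 (SE 0.13, adjusted p = 0.00278 by edgeR), with overlap through mice 12 and 31. L5 ET was the 1 class of 19 in which Thy1 was called by genotype. Thy1 lay above WT in 15 classes and below in 4, with a median of 0.20. In the sum of all nuclei, Thy1 did not pass (0.25, adjusted p = 0.268). Whether transgene reads were counted as Thy1 was not tested.

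**Figure D4:**
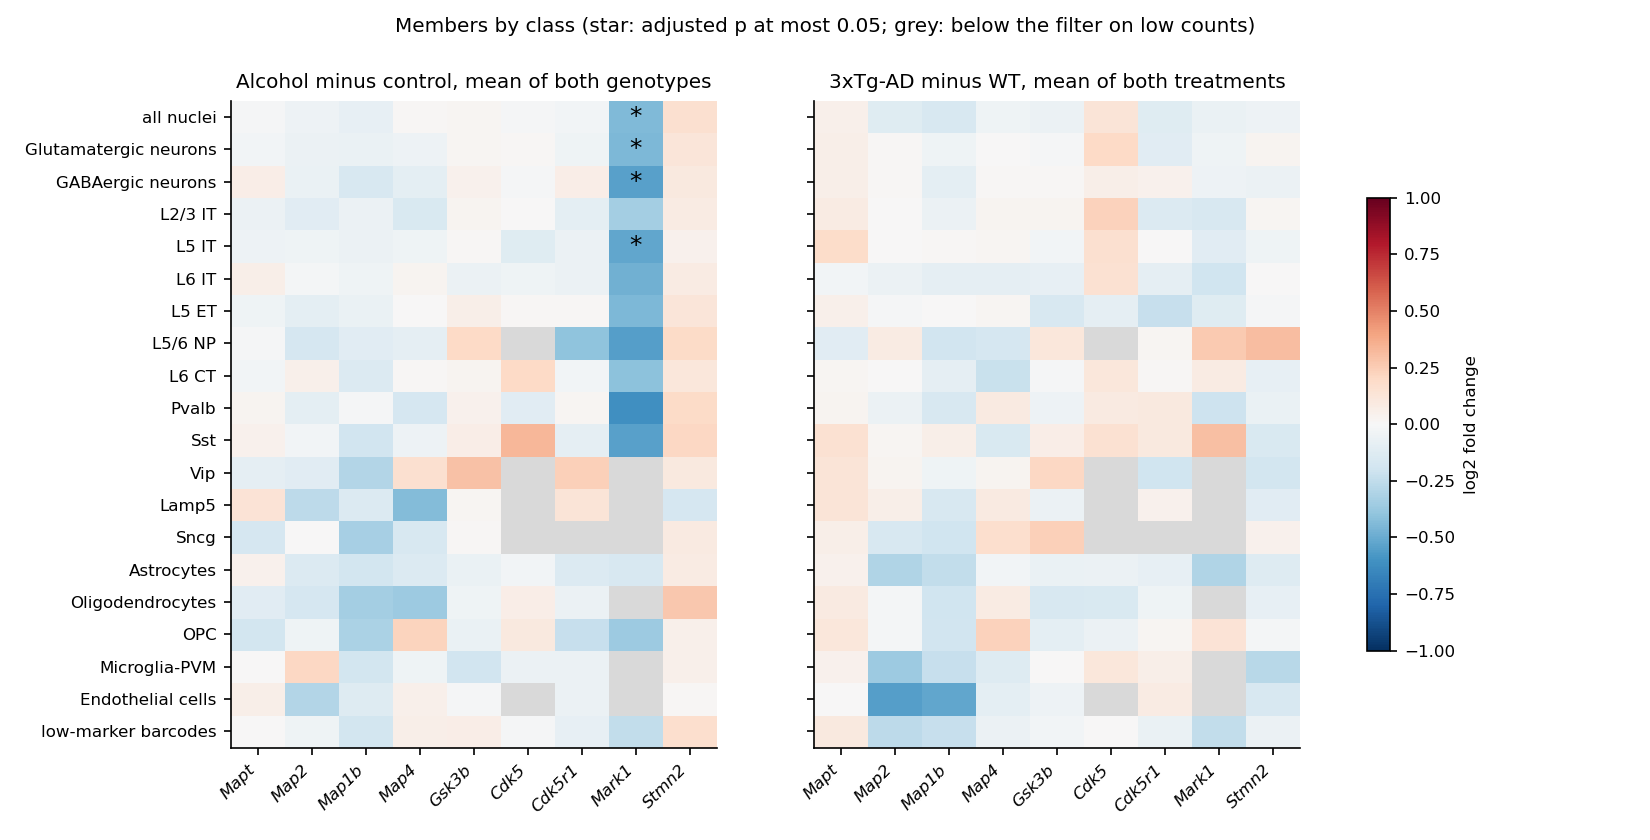
Log2 fold changes of the 9 members in the sum of all nuclei and 19 classes, for alcohol minus control and for 3xTg-AD minus WT. Color gives the fold change, stars mark an adjusted p of at most 0.05, and grey cells did not pass the filter on low counts. Mark1 carried all 4 stars of the alcohol panel (-0.44 in all nuclei, -0.45, -0.54, and -0.52 in 3 classes), and the genotype panel had none.

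Several of the pairwise comparisons share control mice and are not independent of one another. Versus WT controls, alcohol-exposed 3xTg-AD mice had lower Mark1 in the sum of all nuclei (-0.51, SE 0.14, adjusted p = 0.0461 by edgeR), 1 of 9 members called where 4.06% of genes were called. In classes, 0 of 159 member tests were called by edgeR and 1 by DESeq2 (Mark1 in glutamatergic neurons), while 1.18% of all tests were called. Of these member tests, 18 had an unadjusted p under 0.05, as did 2988 of 15016 genes in glutamatergic neurons. In the sum of all nuclei, between 583 genes (interaction) and 3500 genes (alcohol versus control) of 16767 had one. Unadjusted counts of members are to be read against such numbers, not against the shares of calls. The Mark1 call in the sum of all nuclei was lost without the 3 mice with high Gm42418 (-0.24, adjusted p = 0.185) and in 14 of 16 fits that left out 1 mouse (smallest change -0.40, adjusted p = 0.137, without mouse 26). In WT mice, alcohol versus control gave -0.51 for Mark1 (SE 0.14, adjusted p = 0.234 by edgeR and 0.0467 by DESeq2). No member was called by edgeR there in the sum of all nuclei (2 at an unadjusted p under 0.05, 0.0179% of genes called) or in classes (0 of 159, 10 at an unadjusted p under 0.05, 0 by DESeq2, 0.0267% called).

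In 3xTg-AD mice, alcohol versus control gave -0.37 for Mark1 (SE 0.14, adjusted p = 0.247 by edgeR). With the Malat1 covariate this Mark1 difference was called (-0.46, SE 0.10, adjusted p = 0.0428). Without a covariate, no member was called in the sum of all nuclei (1 at an unadjusted p under 0.05, 0.483% of genes called) or in classes (8 at an unadjusted p under 0.05, 0.137% called). 3xTg-AD controls versus WT controls gave 0 calls in the sum of all nuclei (0 at an unadjusted p under 0.05, 0.435% of genes called) and 0 in classes (7 at an unadjusted p under 0.05, 0.185% called). Among alcohol-exposed mice, 3xTg-AD versus WT gave 0 calls in the sum of all nuclei (1 at an unadjusted p under 0.05, Map1b, with 0.942% of genes called) and 0 in classes (1 at an unadjusted p under 0.05, 0.411% called). DESeq2 made 0 member calls in the classes in these 3 comparisons. The interaction of genotype and alcohol, which asks whether the alcohol difference differs between genotypes, was 0.14 for Mark1 (SE 0.19, adjusted p = 0.946 by edgeR). It was called for no member (0 of 9 and 0 of 159, with 0 and 1 at an unadjusted p under 0.05, and 0 by DESeq2 in classes), where 0% of genes and 0.00162% of gene and class tests were called.

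The wider pathway was covered by a list of 37 other tau kinases and phosphatases and a list of 47 other microtubule proteins, all in the table. By genotype, in the sum of all nuclei, 1 of the 37 was called lower and 0 higher (median -0.07, against -0.01 over all genes), and 1 of the 47 was called higher and 0 lower (median -0.05), where 3.28% of all genes were called. In classes, 8 of 555 tests of the kinase list, of 2 genes, were called lower and 0 higher, and of 647 tests of the microtubule list 3 were called higher and 1 lower, of 3 genes, where 1.12% of all tests were called. With alcohol, 1 of the 37 was called lower in the sum of all nuclei and 0 higher (median -0.01, against 0.01 over all genes), and 0 of the 47 passed by edgeR (9 at an unadjusted p under 0.05, median 0.04), where 3.30% of all genes were called. In that sum, 3500 of 16767 genes had an unadjusted p under 0.05. In classes, 4 of the kinase tests, of 2 genes, were called lower with alcohol, and 5 of the microtubule tests were called higher and 2 lower, of 3 genes, where 0.817% of all tests were called.

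The gene with the most calls was Gsk3a, which encodes GSK-3 alpha, the close relative of GSK-3 beta that also phosphorylates tau. Gsk3a in the sum of all nuclei was 54.8, 52.9, 50.9, and 77.1 CPM in WT controls and 47.6, 43.6, 54.9, and 71.8 CPM in alcohol-exposed WT mice. It was 25.8, 37.9, 41.3, and 37.2 CPM in 3xTg-AD controls and 31.5, 29.9, 32.6, and 31.2 CPM in alcohol-exposed 3xTg-AD mice. Every 3xTg-AD mouse lay below every WT mouse. Gsk3a was lower by -0.77 (SE 0.12, adjusted p = 0.00104 by edgeR), was below WT in 14 of 14 classes, and was called in 7 of them, with -0.92 (SE 0.14, adjusted p = 4.2e-05) in astrocytes. The called classes included glutamatergic neurons and their subclasses L2/3 IT, L5 IT, and L6 CT, so these calls are not independent. Gsk3a UMIs per Slc17a7 UMI were 0.128 in astrocytes, 0.117 in low-marker barcodes, and 0.118 to 0.140 in the other 4 classes outside neurons. Its call in astrocytes is not read as a change in those cells, and whether it is one was not tested. Gsk3b in comparison differed by -0.06 (adjusted p = 0.754). Gsk3a (chr7:25228258-25237851, minus strand) overlaps 1 gene on the other strand.

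By genotype, 4 other genes of the lists are named. Mid1, a microtubule-binding ubiquitin ligase gene, was higher in 3xTg-AD mice in L6 IT neurons (1.71, adjusted p = 0.0231 by edgeR) and astrocytes (1.21, adjusted p = 0.00932) and lay above WT in 10 of 10 classes. Map1s, a short relative of Map1b, was higher in the sum of all nuclei (0.31, SE 0.08, adjusted p = 0.0346) and in glutamatergic neurons (0.35, adjusted p = 0.0364). The Map1s call in the sum of all nuclei was lost without the 3 mice with high Gm42418 (0.30, adjusted p = 0.0697 by edgeR) and without mouse 6, 12, 13, 18, 21, 26, 33, 34, or 36 alone (0.27 to 0.32, largest adjusted p = 0.0782). Map1a, the adult relative of Map1b, was lower in endothelial cells (-0.73, adjusted p = 0.0337), and the tau-tubulin kinase gene Ttbk1 was lower in astrocytes (-0.56, adjusted p = 0.0404). Map1a had 1.06 UMIs per Slc17a7 UMI in endothelial cells, 1.80 in low-marker barcodes, and 0.732 (microglia) to 1.92 (astrocytes) in the other classes outside neurons. Ttbk1 had 0.176 in astrocytes, 0.148 in low-marker barcodes, and 0.0815 (microglia) to 0.117 (oligodendrocytes) in the others. Neither gene kept 1 ratio across these classes. Neither call is read as a change in those cells, and whether it is one was not tested. Mid1 had 0.0401 UMIs per Slc17a7 UMI in astrocytes, 0.0124 in low-marker barcodes, and 0.0178 (oligodendrocytes) to 0.0712 (microglia) in the others. Without the 3 mice with high Gm42418, calls were also lost for Map1s in glutamatergic neurons (0.37, adjusted p = 0.0551 by edgeR), Map1a in endothelial cells (-0.66, adjusted p = 0.215), and Mid1 in L6 IT neurons (1.65, adjusted p = 0.160), and kept for Mid1 and Ttbk1 in astrocytes. The Map1a call was lost with the Gm42418 covariate as well (-0.48, adjusted p = 0.283). The 8 calls of Gsk3a, classes and all nuclei together, were kept in both fits.

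With alcohol, Mark3, another kinase of the MARK family, was lower in the sum of all nuclei (-0.38, SE 0.08, adjusted p = 0.0249 by edgeR). Mark3 was 172, 216, 170, and 160 CPM in WT controls and 137, 141, 122, and 125 CPM in alcohol-exposed WT mice, with no overlap. In 3xTg-AD mice it was 214, 190, 166, and 162 CPM without and 148, 170, 126, and 148 CPM with alcohol, where mouse 31 overlapped the controls. Mark3 was below the controls in 18 of 18 classes and was called in glutamatergic, L2/3 IT, and L5 ET neurons (-0.36, -0.39, and -0.47). L2/3 IT and L5 ET nuclei are part of the glutamatergic class, so these calls are not independent. Without the 3 mice with high Gm42418, the call in glutamatergic neurons was kept (-0.26, adjusted p = 0.0375 by edgeR) and those in L2/3 IT (-0.31) and L5 ET neurons (-0.32) were lost, and all 3 were lost with the Gm42418 covariate. The Mark3 call in the sum of all nuclei was lost without the 3 mice with high Gm42418 (-0.28, adjusted p = 0.0520 by edgeR), with the Gm42418 covariate (-0.27, adjusted p = 0.126), and without mouse 13, 17, 18, or 33 alone (-0.37 to -0.34, largest adjusted p = 0.0684).

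Stmn3, a stathmin gene like Stmn2, was the one list gene called higher with alcohol. It was above the controls in 19 of 19 classes and was called in glutamatergic (0.40), GABAergic (0.38), L2/3 IT (0.41), L5 ET (0.52), and Lamp5 neurons (0.71). In the sum of all nuclei, Stmn3 did not pass (0.42, SE 0.13, adjusted p = 0.0754 by edgeR). All 5 class calls of Stmn3 were lost without the 3 mice with high Gm42418 (0.25 to 0.65, smallest adjusted p = 0.105) and with the Gm42418 covariate (0.19 to 0.67, smallest adjusted p = 0.158). In GABAergic neurons, the tubulin deacetylase gene Hdac6 (-0.50, adjusted p = 0.0135), the kinase gene Rock1 (-0.38, adjusted p = 0.0263), and the microtubule plus-end gene Clip1 (-0.34, adjusted p = 0.0366) were lower. Without the 3 mice with high Gm42418, the call of Hdac6 was kept (-0.47, adjusted p = 0.0312 by edgeR), and those of Rock1 (-0.30, adjusted p = 0.111) and Clip1 (-0.31, adjusted p = 0.0784) were lost. All 3 were lost with the Gm42418 covariate (-0.48, -0.28, and -0.29, smallest adjusted p = 0.0529).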

How the data were processed

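Nuclei of the medial PFC of 16 mice were profiled with 10x Genomics 3′ chemistry, with 1 library per mouse, so replicates are separate mice. The authors aligned the reads to mm10 with Cell Ranger 6.1.1, which uses STAR, per the submitters' processing notes, and deposited raw UMI counts of 19999 genes in 114512 nuclei in a single table without normalization. All nuclei were used, and each was given to its mouse by the sample name in its label. The members and lists were chosen with earlier results of these data known.

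Nuclei were classed here by their UMIs in marker genes. Nuclei with clearly more markers of 1 class served as seeds, as did barcodes with few distinct markers for the low-marker class. A nucleus took the class with the highest multinomial likelihood when it exceeded the second by 20-fold (1000-fold as an alternative). No doublet caller was run, and nuclei with markers of several classes could fail this margin. UMIs were summed per mouse and class, with at least 10 nuclei per mouse and 3 mice per group. L6b, VLMC, and pericyte nuclei were too few to test. The sums were tested over all genes with edgeR 4.0.16 in R 4.3.3 (TMM, filterByExpr, robust quasi-likelihood fit of 4 group means, statmod 1.5.0). Benjamini-Hochberg adjustment ran over all genes of a class in a contrast, with calls at an adjusted p up to 0.05. The fit was tested on simulated data. Levels are CPM on full library totals, scaled by TMM within a class except for Gm42418, Slc17a7, Malat1, Gad1, and Mbp. Neighboring classes were compared on log2 CPM with a prior count of 0.5 in Python 3.11.15 (numpy 2.4.6, scipy 1.17.1, pandas 2.3.3). Positions were taken from GENCODE M21.

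Alternatives were RLE scaling, DESeq2 1.42.0 (the tool of the study), no count filter, nuclei with at least 500 genes and at most 5% mitochondrial UMIs, the stricter margin, each mouse left out, the 3 mice with the most Gm42418 left out, and a Gm42418 or Malat1 covariate. All 9 members were named, with the related genes called in a contrast (at most the 5 with the smallest adjusted p), Thy1, Gm42418, and the 3 genes most like each member over classes. An SD holds both counting error and the spread among mice. An allele of the mouse line is not reported here.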

Additional observations from a re-analysis of the deposited data

Results flagged for a closer look

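For a mouse far from the other 3, 64 groups of 4 mice were examined, and chance alone would mark about 1 in 20. These were groups in the sum of all nuclei and, for Mark1, Mapt, and Thy1, also in single classes. All values marked lay in the sum of all nuclei. Among 3xTg-AD controls, mouse 12 had 135 CPM of Map4, against 178 to 180 CPM in the other 3 mice. The same mouse had 248 CPM of Gsk3b, against 199 to 205 CPM in the others. Mouse 12 is 1 of the 3 mice with high Gm42418, and its part in both values was not tested. Among WT controls, mouse 36 had 77.1 CPM of Gsk3a, against 50.9 to 54.8 CPM in the others, which puts it farther from 3xTg-AD mice.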

How the results depend on the processing

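No paired analysis was possible because every mouse has its own number and the groups share none. The count of member calls over classes for alcohol versus control, 3 with all 16 mice, was 0 without the 3 mice with the most Gm42418, 1 with the Gm42418 covariate, 1 with the stricter margin, and 5 with the Malat1 covariate, which was added after the data were seen. The call with the Gm42418 covariate was Cdk5 in glutamatergic neurons, and no class call of Mark1 was kept there. The call with the stricter margin was Mark1 in glutamatergic neurons. Calls over all genes moved as well. In the sum of all nuclei there were 553 of 16767 genes in the main fit and 981 of 17271 without the 3 mice. There were 1184 of 16767 with the Gm42418 covariate and 1172 of 16767 with the Malat1 covariate. Shares over all class tests are not given for the changed fits, so these member counts are not read as a result about the members. Leaving out 1 mouse gave 0 to 6, with 0 without mouse 13, 26, 27, or 33. For alcohol-exposed 3xTg-AD mice versus WT controls the count went from 0 to 1 (DESeq2), 2 (no filter), and 4 (Malat1 covariate), and from 0 to 5 with a mouse left out. For alcohol-exposed WT mice versus WT controls it went from 0 to 1 with no filter and 1 with the Malat1 covariate, and from 0 to 1 with a mouse left out, as it did by genotype.

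Mark1 in the sum of all nuclei lost its alcohol call with the Gm42418 covariate (-0.17, adjusted p = 0.244), and leaving out a mouse gave -0.49 to -0.37. In the comparison of alcohol-exposed 3xTg-AD mice with WT controls it lost its call with RLE scaling (-0.51, adjusted p = 0.0519), without the 3 mice (-0.24), with the Gm42418 covariate (-0.12), and in 14 of 16 fits that left out 1 mouse (-0.60 to -0.40). With the median over mice of CPM without TMM scaling, in place of the mean with it, the highest class became oligodendrocytes for Map4 (309 CPM) and low-marker barcodes for Gsk3b (310 CPM), and the medians with TMM scaling gave the same classes (307 and 299 CPM).

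Values near 0 changed sign. With the Gm42418 covariate these were Gsk3b (0.02) and Mark1 (0.05) by genotype, and Mapt (0.04), Map2 (0.06), Map1b (0.01), and Map4 (-0.09) by alcohol. Without the 3 mice they were Mark1 (0.00) and Mapt in L5 ET neurons (-0.00) by genotype, and Mapt (0.02), Map2 (0.01), and Map4 (-0.07) by alcohol. Cdk5 by alcohol was 0.03 with the Malat1 covariate. With a mouse left out, values by alcohol ran from -0.06 to 0.07 for Cdk5, -0.07 to 0.00 for Cdk5r1, -0.02 to 0.06 for Gsk3b, -0.04 to 0.03 for Map4, and -0.03 to 0.02 for Mapt, and Map4 by genotype ran from -0.08 to 0.00. The cause was not tested for any of these changes.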

Other observations

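The genes most like each member in log2(CPM + 1) over 17 classes, among 13798 genes, were taken from levels pooled over mice. The points share libraries and free RNA, and 17 classes are few, so the correlations are descriptions. Mapt was most like Aatk (Pearson's r = 0.957), Trim59 (0.926), and Gm19500 (0.921). Map2 was most like Tnk2 (0.850), Shank1 (0.841), and Nfkb2 (0.840), and Map1b was most like Dlgap4 (0.900), Eno2 (0.887), and Pgm2l1 (0.876). The pattern of Map4 was nearest to that of Coq7 (0.973), Ik (0.972), and Kars (0.964), and the pattern of Gsk3b to those of Psmd4 (0.939), Gmps (0.912), and Blmh (0.899). Cdk5 was nearest to Cpox (0.901), Hsf5 (0.879), and Polr3e (0.875), and Cdk5r1 to Mlf2 (0.960), Klf16 (0.957), and Ppp3r1 (0.955). Mark1 was nearest to Dgkh (0.901), Samd12 (0.887), and Strbp (0.887). Stmn2 was nearest to Atp6v1b2 (0.976), Ywhag (0.976), and Clip3 (0.975).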
